A study of Mus musculus with 2 samples.

Results

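The genes described here are those of growth hormone and prolactin receptor signalling in liver: the receptors Ghr and Prlr, the kinase Jak2, the transcription factors Stat5a and Stat5b, the feedback inhibitors Socs2 and Cish, the repressor Bcl6, and the secreted products Igf1 and Igfals. They are 10 of the 32285 genes in each matrix and were chosen by name, with earlier results of these same libraries known, so that their levels are given as a description. Single-cell RNA-seq was done on livers of male mice on a C57BL6 background after 16 weeks of western diet (HFD in the library titles). The WT library came from control liver, mixed as hepatocytes and non-parenchymal cells. The N-LKO library came from mice in which albumin-Cre deletes the loxP-flanked gene for the Nogo-B receptor (NgBR, encoded by Nus1), and it combined liver with tumor tissue. There was 1 library per genotype, so genotype, tumor tissue, cell recovery and library cannot be told apart, and no p-value is given. Intervals are exact 95% intervals that cover counting error only.

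Growth hormone binds GHR on hepatocytes, JAK2 is activated on the receptor, and phosphorylated STAT5 enters the nucleus. STAT5 then activates Igf1, Igfals, Socs2 and Cish, and the pulsatile male pattern of the hormone keeps male-biased liver genes on and female-biased genes low. PRLR signals through the same kinase and STAT5, and BCL6 represses many STAT5-bound genes.

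Of the 10 genes, 9 had at least 1 promoter window among the RefSeq sequences used here (GRCm38.p6, from 250 bases before to 50 bases after the start site, 17 windows). The STAT5 motif TTCNNNGAA, which reads the same on both strands, occurred in 6 of these windows and in 4 of the genes. It occurred in 8.30% of 32851 mouse promoter windows of the same length, and 0.457% held 2 or more matches. The Cish window (chr9:107296409-107296708, plus strand) and the second Bcl6 window (chr16:23981234-23981533, minus strand) are shown because they held more than 1 match, and the second Igfals window (chr17:24877981-24878280, plus strand) because it held 1 close to the start. Capitals mark the matches.
Cish: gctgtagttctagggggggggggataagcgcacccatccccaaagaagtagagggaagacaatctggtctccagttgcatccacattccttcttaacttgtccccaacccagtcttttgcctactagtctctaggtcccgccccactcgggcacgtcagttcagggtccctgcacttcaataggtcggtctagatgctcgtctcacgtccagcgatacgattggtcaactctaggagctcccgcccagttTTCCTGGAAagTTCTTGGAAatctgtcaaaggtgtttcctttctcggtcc
Bcl6: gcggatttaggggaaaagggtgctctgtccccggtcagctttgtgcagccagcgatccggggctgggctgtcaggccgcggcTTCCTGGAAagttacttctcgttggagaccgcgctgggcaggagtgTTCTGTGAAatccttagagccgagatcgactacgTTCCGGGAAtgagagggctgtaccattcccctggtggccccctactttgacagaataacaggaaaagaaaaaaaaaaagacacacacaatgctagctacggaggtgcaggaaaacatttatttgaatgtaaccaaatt
Igfals: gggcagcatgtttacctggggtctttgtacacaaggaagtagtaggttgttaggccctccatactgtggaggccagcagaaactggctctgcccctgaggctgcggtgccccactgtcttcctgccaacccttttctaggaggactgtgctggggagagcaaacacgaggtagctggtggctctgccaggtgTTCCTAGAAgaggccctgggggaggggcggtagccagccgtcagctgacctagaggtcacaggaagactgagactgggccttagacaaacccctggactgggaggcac
In Cish the matches began at the start site and 11 bases after it. In Bcl6 they began 168, 122 and 88 bases before it, and in Igfals 58 bases before it. Neither Ghr window nor the Igf1 window held a match.

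After filtering, 18434 WT cells and 19851 N-LKO cells remained, with a median of 1401 and 1454 unique molecular identifiers (UMIs). The 2 libraries shared 122 barcodes among kept cells. Cells were clustered without the 10 genes and without the pathway lists given below. Hepatocyte-like cells, named from 28 fixed markers, made up 9955 WT cells and 4106 N-LKO cells. They fell into 5 clusters that hardly overlapped between libraries and differed in Malat1, a nuclear RNA. Malat1-middle clusters held 85.1% of the WT hepatocyte-like cells and 50.1% of those from N-LKO, and Malat1-rich clusters held 3.34% and 49.2%. The Malat1-poor cluster held 1148 WT and 28 N-LKO cells. The larger Malat1-middle cluster held 8337 WT and 130 N-LKO cells, and the smaller 138 and 1927. The Malat1-rich clusters held 329 WT and 5 N-LKO cells, and 3 WT and 2016 N-LKO cells. A comparison within a kind thus set largely different clusters against each other. The main N-LKO Malat1-rich cluster (2016 cells) raised 6 of the 28 hepatocyte markers at least 2-fold, and the naming threshold it passed was set after the data were seen. Its leading genes held none of the hepatocyte markers. Nus1 was at 73.2 CPM (UMIs per 1000000 UMIs of a sum) in WT and 34.2 CPM in N-LKO hepatocyte-like cells. In Malat1-rich cells it was at 43.9 and 29.0 CPM, and the interval of its log2 ratio (-1.19 to 0.04) spanned 0.

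Free RNA was high in these libraries. From markers of other cell types, the RNA of barcodes under 500 UMIs could supply up to 80.0% of the UMIs of WT Malat1-middle cells and 38.2% of those of N-LKO Malat1-middle cells. The shares were 36.3% and 46.9% in Malat1-rich cells. These are estimates, since the deposited matrices began at 326 UMIs per barcode in WT and 377 in N-LKO. The level that free RNA alone would give is printed beside each of the 10 genes in Malat1-middle cells and beside the values near it elsewhere.

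Ghr, the growth hormone receptor, gave one picture in pooled hepatocyte-like cells and another once they were split by Malat1. Over all hepatocyte-like cells Ghr was at 1846 CPM in WT against 1745 CPM in N-LKO, for a log2 ratio of -0.08 (-0.11 to -0.05). In Malat1-middle cells it was at 1760 CPM in WT against 638 CPM in N-LKO, 2.76-fold lower (log2 ratio -1.46, -1.52 to -1.41). In Malat1-rich cells it was at 6569 CPM in WT against 3053 CPM in N-LKO, 2.15-fold lower (log2 ratio -1.11, -1.16 to -1.06). Ghr was thus lower in N-LKO in both kinds of cell, though within each kind the WT and N-LKO cells came largely from different clusters. The kind with the higher level made up a larger part of the N-LKO cells. Free RNA alone would give 448 CPM of Ghr in WT and 175 CPM in N-LKO Malat1-middle cells. Thinned to 1000 UMIs a cell, 79.5% (78.6 to 80.3) of WT and 44.4% (42.3 to 46.6) of N-LKO Malat1-middle cells held a Ghr UMI. Before thinning these shares were 89.9% and 66.0%, at median depths of 1576 and 1963 UMIs. The class called T-like takes in natural killer cells, and its cluster scored highest for natural killer markers. In T-like cells the thinned shares were 25.04% in WT and 31.4% in N-LKO, at median depths of 1190.5 and 1359 UMIs. The Ghr level of T-like cells was above that of free RNA alone in both libraries. WT Malat1-poor cells had 447 CPM of Ghr, against 421 CPM from free RNA alone.

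**Figure D1:**
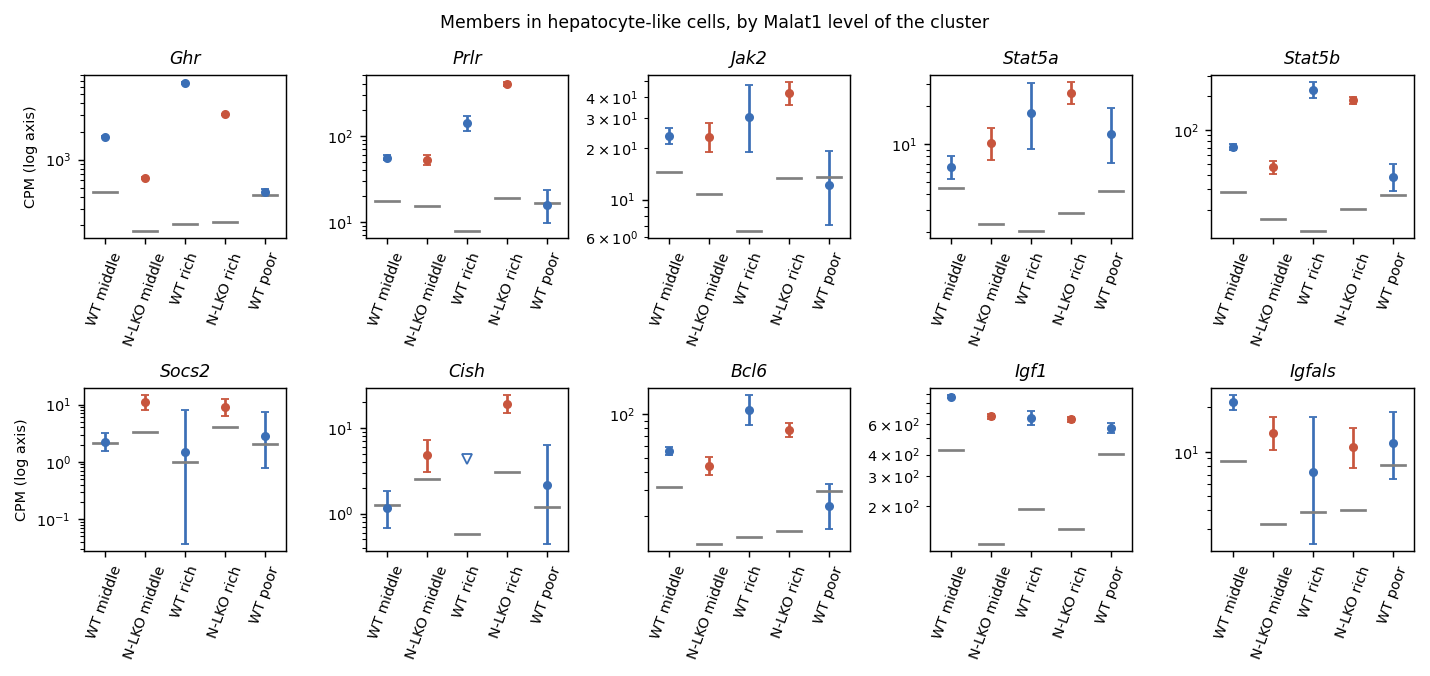
Level of each of the 10 genes in hepatocyte-like cells, by library and by the Malat1 level of the cluster, on log axes in CPM that differ between panels. Points are sums over cells with 95% Poisson intervals, grey bars the level free RNA alone would give, and the open triangle the level of 3 UMIs where none was counted. Ghr lies lower in N-LKO than in WT in both the Malat1-middle and the Malat1-rich cells (638 against 1760 CPM and 3053 against 6569 CPM).

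Prlr, the prolactin receptor, differed by kind of cell in the other sense. In Malat1-middle cells it was at 55.5 CPM in WT against 52.1 CPM in N-LKO, with an interval of the log2 ratio from -0.30 to 0.12, and free RNA alone would give 17.5 and 15.3 CPM. In Malat1-rich cells it was at 140 CPM in WT against 400.1 CPM in N-LKO, for a log2 ratio of 1.504 (1.21 to 1.82). The Malat1-rich value rested on 96 WT UMIs. Prlr overlaps the gene Gm21973 on the same strand, and the part of this overlap in its counts was not tested. Over all hepatocyte-like cells the log2 ratio was 1.93 (1.81 to 2.04).

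Jak2, the kinase bound to both receptors, was at 23.6 and 23.3 CPM in WT and N-LKO Malat1-middle cells, where free RNA alone would give 14.5 and 10.8 CPM, and its interval (-0.35 to 0.30) spanned 0. In Malat1-rich cells it was at 30.7 and 42.1 CPM, from 21 WT UMIs. Stat5b, the main STAT5 of male liver, was lower in N-LKO in both kinds of cell. In Malat1-middle cells it was at 71.1 CPM, against 46.9 CPM for N-LKO (log2 ratio -0.60, -0.82 to -0.39), and free RNA alone would give 28.8 and 16.5 CPM. In Malat1-rich cells it was at 225 CPM in WT against 182 CPM in N-LKO (log2 ratio -0.31, -0.56 to -0.05). Over all hepatocyte-like cells the sign was the opposite, with a log2 ratio of 0.54. Stat5a, the closely related factor, was scarce, at 6.52 CPM in WT against 10.1 CPM in N-LKO Malat1-middle cells (log2 ratio 0.64, 0.09 to 1.16), where free RNA alone would give 4.51 and 2.32 CPM. Stat5a overlaps Stat3 on the opposite strand.

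**Figure D2:**
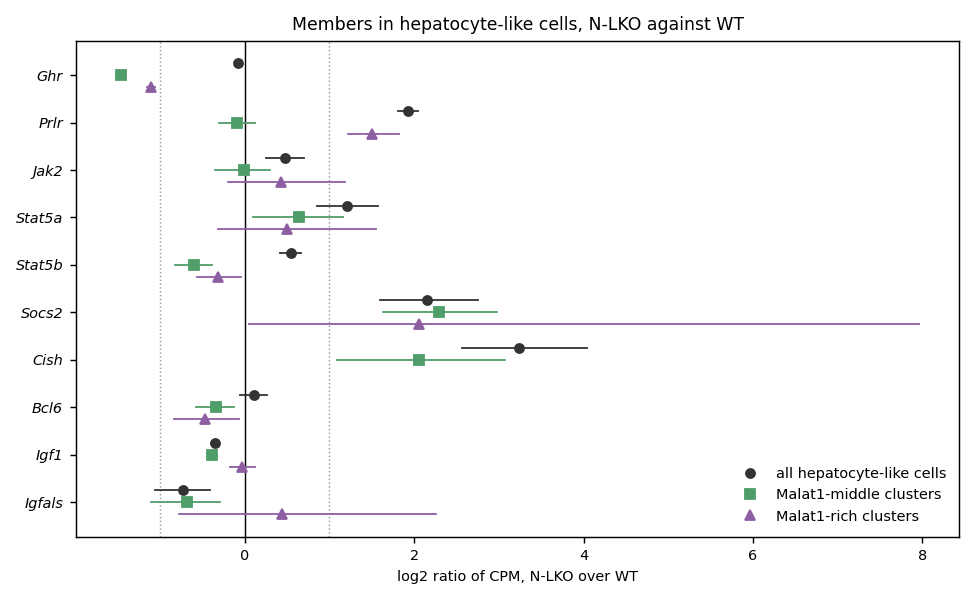
Log2 ratio of CPM, N-LKO over WT, for each of the 10 genes in all hepatocyte-like cells and within the Malat1-middle and Malat1-rich clusters. Lines are exact 95% intervals for counting error, dotted lines mark 2-fold, and Cish in Malat1-rich cells is left out because WT had no UMI. Ghr and Stat5b lie below 0 within both kinds of cell but at -0.08 and 0.54 when the cells are pooled.

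The feedback inhibitors were scarce. Socs2 was at 2.24 CPM in WT Malat1-middle cells, where free RNA alone would give 2.16 CPM, and at 11 CPM in N-LKO, where it would give 3.32 CPM. The log2 ratio was 2.29 (1.63 to 2.98), from 33 and 50 UMIs. In Malat1-rich cells 1 UMI of Socs2 was counted in WT and 35 in N-LKO, and the interval of the log2 ratio ran from 0.05 to 7.96. Cish was at 1.15 CPM in WT against 4.84 CPM in N-LKO Malat1-middle cells, from 17 and 22 UMIs, and did not reach the filter of 5 CPM there. Free RNA alone would give 1.27 and 2.50 CPM, so that the WT values of both inhibitors were not above it. In Malat1-rich cells Cish had no UMI in WT, which allows up to 4.39 CPM, and 75 UMIs (19.3 CPM) in N-LKO, so that it was at least 4.39-fold higher, where 3 UMIs are taken as the limit of a count of 0. The exact interval of its log2 ratio began lower, at 1.80. Wherever Socs2 or Cish passed the filter, in the pooled, Malat1-middle or Malat1-rich cells, it did so through N-LKO alone, and a gene that passes in that way had to differ. Both were also found outside hepatocytes. With hepatocyte-like cells included, 10 classes had at least 200 cells in both libraries. Of these, hepatocyte-like cells had the lowest Socs2 level in each library (WT 2.26 CPM, N-LKO 10.1 CPM). Each of these intervals overlapped that of the next class. For Cish they ranked 8 of 10 in the WT library (1.19 CPM) and 3 of 10 in the N-LKO library (11.4 CPM). T-like cells held Cish at 17.1 CPM (WT) and 27.5 CPM (N-LKO). Bcl6 was at 55.7 CPM in WT against 43.8 CPM in N-LKO Malat1-middle cells (log2 ratio -0.34, -0.58 to -0.12), and free RNA alone would give 31.5 and 12.8 CPM. In Malat1-rich cells it was at 107 CPM in WT against 77.5 CPM in N-LKO (log2 ratio -0.47, -0.83 to -0.07).

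Igf1, the circulating growth factor made under STAT5, was lower in N-LKO in Malat1-middle cells, at 869 CPM in WT against 667 CPM in N-LKO (log2 ratio -0.38, -0.44 to -0.32). In Malat1-rich cells the levels were 655 CPM and 640 CPM, with an interval from -0.18 to 0.11. Free RNA alone would give 427 CPM in WT against 121 CPM in N-LKO Malat1-middle cells. Igfals, the acid-labile subunit that holds IGF1 in the circulation, was at 21.6 CPM in WT against 13.4 CPM in N-LKO Malat1-middle cells (log2 ratio -0.68, -1.11 to -0.29), where free RNA alone would give 8.62 and 3.25 CPM. In Malat1-rich cells only 5 WT UMIs were counted. Igf1 has an antisense gene, Igf1os, within its span.

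The 2 kinds of cell were not alike between libraries. Malat1 was at 8640 CPM in WT against 4557 CPM in N-LKO Malat1-middle cells and at 35566 against 20025 CPM in Malat1-rich cells, and the median mitochondrial shares were 21.6% and 16.0%, and 6.95% and 14.5%. Their part in the results was not tested. With free RNA subtracted, the log2 ratios in Malat1-middle cells were -2.62 for Ghr, -1.15 for Prlr and -1.59 for Stat5b. They were -0.81 for Igf1 and -1.46 for Igfals. These values have no interval and rest on the upper estimates of free RNA, 80.0% in WT and 38.2% in N-LKO. Without subtraction the interval of Prlr spanned 0 there. In Malat1-rich cells the subtracted log2 ratios were -0.996 for Ghr, 1.69 for Prlr and 0.26 for Igf1. Before subtraction that of Igf1 was -0.035, with an interval that spanned 0.

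By size, 0 of the 10 genes were lower and 4 (Prlr, Stat5a, Socs2 and Cish) were higher by at least 2-fold over all hepatocyte-like cells. Among 10600 genes with at least 5 CPM in either library, 2.35% were lower and 21.1% higher by that fold. In Malat1-middle cells 9 genes passed the filter, of which Ghr was lower and Socs2 higher by 2-fold, against 3.06% and 6.17% of 9944 genes. In Malat1-rich cells all 10 passed, with Ghr lower and Prlr, Socs2 and Cish higher, against 11.9% and 16.6% of 11375 genes. Socs2 and Cish are counted here although they had to differ. The members were chosen on these libraries, and nothing is read from these counts.

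Long genes were shifted between libraries, and the shift depended on the cells compared. In the pooled cells the median log2 ratio rose from -0.07 in the fifth of genes with the shortest genomic span to 0.93 in the fifth with the longest. In Malat1-middle cells it ran the other way, from 0.31 to -0.04, and in Malat1-rich cells from -0.48 to 0.37. Ghr spans 266 kb and Prlr 172 kb in the GRCm38 annotation. Relative to genes of like span, Ghr had a log2 ratio of -1.43 in Malat1-middle and -1.47 in Malat1-rich cells, and Prlr one of -0.05 and 1.14.

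**Figure D3:**
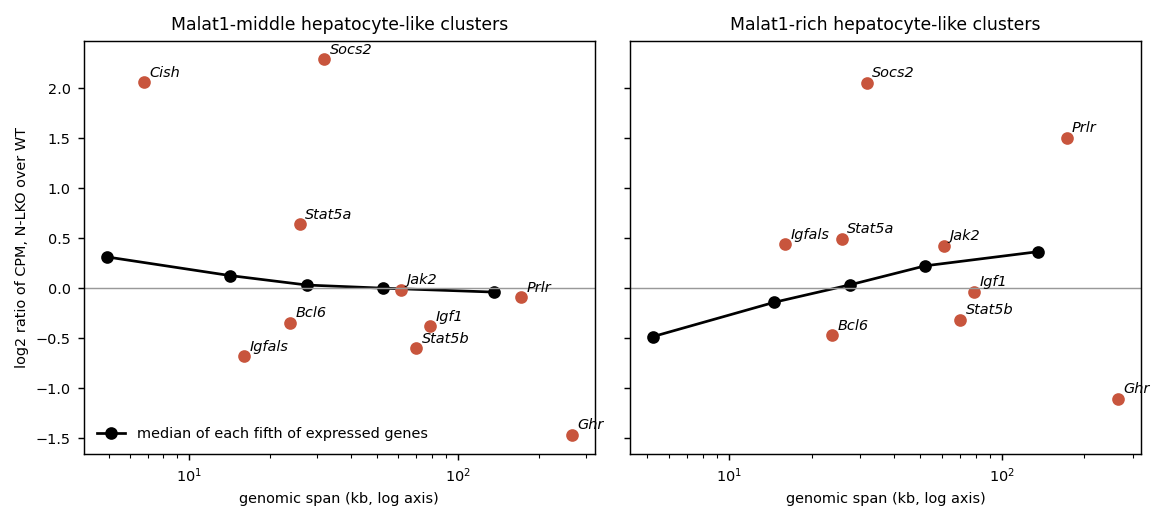
Log2 ratio of CPM, N-LKO over WT, against genomic span in kb on a log axis, for Malat1-middle (left) and Malat1-rich (right) hepatocyte-like cells. Black points are medians of 5 span bins of the expressed genes and red points the 10 genes, with Cish left out on the right. Ghr lies below the line of medians in both panels, by 1.43 and 1.47.

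Zonation was read within the Malat1-middle cells by whether pericentral or periportal markers held more UMIs. There were 1304 pericentral-leaning and 6791 periportal-leaning WT cells, and 331 and 1632 N-LKO cells. Tied cells, 380 in WT and 94 in N-LKO, were left out. Free RNA was not subtracted for the zones. Over the Malat1-middle cells it alone would give 427 CPM of Igf1 in WT and 121 CPM in N-LKO. Of the pericentral-leaning cells 25.8% in WT and 23.6% in N-LKO lay within 1 UMI of the boundary. Ghr was lower in N-LKO in both zones, with log2 ratios of -1.48 (-1.63 to -1.34) in pericentral-leaning and -1.45 (-1.52 to -1.39) in periportal-leaning cells. Igf1 was higher in periportal-leaning than in pericentral-leaning cells, at 894 against 748 CPM in WT and 717 against 469 CPM in N-LKO. Its N-LKO over WT log2 ratio was -0.67 (-0.85 to -0.50) in pericentral-leaning and -0.32 (-0.38 to -0.26) in periportal-leaning cells. Prlr in WT was at 74.9 CPM in pericentral-leaning and 51.1 CPM in periportal-leaning cells, and in N-LKO at 51.0 and 51.5 CPM.

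Outside hepatocytes, the classes with at least 200 cells in both libraries gave 10 sums in each library with the hepatocyte-like cells. Ghr was highest in hepatocyte-like cells in both libraries. It was next in B-like cells (555 CPM) and endothelial-like cells (491 CPM) in WT, whose intervals overlapped, and in endothelial-like (1026 CPM) and mixed stellate and endothelial cells (930 CPM) in N-LKO. Hepatocyte markers were present in these classes as well: by their level, free RNA could supply 44.8% and 44.9% of the UMIs of WT and N-LKO endothelial-like cells and 46.0% and 43.9% of those of T-like cells. At these shares free RNA alone would give 205 CPM of Ghr in N-LKO endothelial-like cells and 201 CPM in N-LKO T-like cells, where 627 CPM was counted. The part of hepatocyte RNA in these levels was not tested further.

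In endothelial-like cells Ghr had a log2 ratio of 1.06 (0.97 to 1.16), which became -0.30 at a mitochondrial limit of 10%. Prlr had a log2 ratio of 3.00 (2.50 to 3.59), at 13.9 CPM (WT) against 113 CPM (N-LKO). Free RNA alone would give 9.82 CPM there in WT, within the interval of the WT level, and 18.0 CPM in N-LKO. In T-like cells the log2 ratio of Ghr was 0.98 (0.84 to 1.13) and that of Prlr 2.46 (1.90 to 3.12). The WT levels there were 317 CPM of Ghr and 16.5 CPM of Prlr (26 UMIs), where free RNA alone would give 258 and 10.1 CPM. In macrophage-like cells Ghr was at 209 CPM in WT against 200.3 CPM in N-LKO, where free RNA alone would give 181 and 147 CPM. With free RNA subtracted, its log2 ratio there was 0.92. Prlr was at 7.32 and 21.2 CPM in these cells, where free RNA alone would give 7.09 and 12.8 CPM. Igf1 was next highest in macrophage-like cells, after hepatocyte-like cells, in both libraries. It was at 760 CPM there in WT, against 588 CPM in N-LKO, with a log2 ratio of -0.37 (-0.46 to -0.29), where free RNA alone would give 173 CPM and 102 CPM. Socs2 was higher in N-LKO macrophage-like cells, at 15.03 CPM against 5.60 CPM, and was at 19.2 and 22.9 CPM in WT and N-LKO endothelial-like cells.

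**Figure D4:**
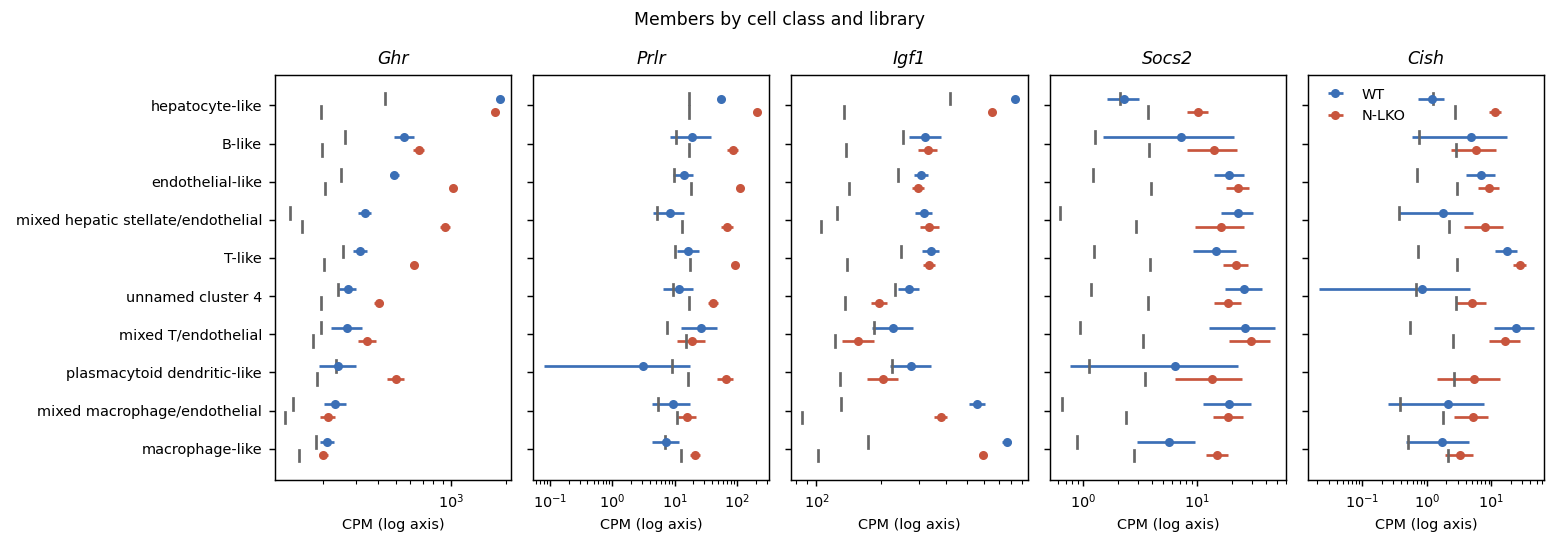
Levels of Ghr, Prlr, Igf1, Socs2 and Cish by cell class and library, in CPM on log axes. Points are sums over cells with 95% Poisson intervals, ticks the level free RNA alone would give, and classes without a UMI have no point. Ghr is highest in hepatocyte-like cells in both libraries (1846 and 1745 CPM), and Igf1 is next highest in macrophage-like cells (760 and 588 CPM).

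Over the 20 sums by class and library, the genes with levels most like Ghr were Cdh18 (Pearson r = 0.98), Klf12 (r = 0.96) and Erbb4 (r = 0.96). Those most like Prlr were Map3k13 (r = 0.99), Smoc1 (r = 0.97) and Ildr2 (r = 0.96), and those most like Igf1 were Paqr9 (r = 0.88), Cd302 (r = 0.88) and Ttyh2 (r = 0.82). The sums share 2 libraries and their free RNA, and the values describe likeness only.

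Male-biased liver genes, which need pulsatile growth hormone and STAT5b, were mostly lower in N-LKO. Of 22 genes 20 passed the filter in Malat1-middle cells, 17 of them with an interval below 0 and 3 above, with a median log2 ratio of -1.24 against 0.07 over all expressed genes. Of all expressed genes 18.3% had an interval below 0 and 28.1% one above 0 in these cells. In Malat1-rich cells 16 of 21 lay below 0 and 2 above, with a median of -1.65 against 0.05, where 16.9% of all expressed genes lay below 0 and 19.8% above. Hsd3b5, a steroid dehydrogenase, went from 21.9 CPM to 0.440 CPM in Malat1-middle cells (323 and 2 UMIs). Mup12 and Mup1, major urinary proteins with near-identical copies that share reads, were at 217 and 97.3 CPM in WT and at 10.3 and 5.06 CPM in N-LKO. The genes of highest ratio in the pooled cells were Moxd1, C6 and Susd4. Moxd1, at 0.476 CPM in WT against 7.19 CPM in N-LKO, passed through N-LKO alone and so had to be higher. The same held in Malat1-rich cells, where Moxd1 is counted among the 2 above 0. C6, a complement component, was at 191 CPM in WT against 220 CPM in N-LKO Malat1-middle cells, and Susd4 at 10.2 and 5.50 CPM. Mup20, the most abundant of the list, was higher in N-LKO Malat1-middle cells, at 34303 against 49241 CPM.

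Of 23 female-biased genes, 15 did not pass the filter in Malat1-middle cells, and 5 of the 8 that did passed through N-LKO alone and so had to be higher. The 3 that passed in WT were Ntrk2, Abcd2 and Slco1a4, with log2 ratios of 1.83, 0.40 and -0.30. In Malat1-rich cells 12 did not pass and 5 of 11 passed through N-LKO alone, 3 of them with no WT UMI. The 6 that passed in WT there had log2 ratios of 2.24 (Abcd2), 0.70 (Cyp2b9), 0.35 (Slco1a4), 0.21 (Cyp17a1), -0.21 (Slc22a27) and -0.72 (Ntrk2). Among them the intervals of Abcd2 (1.26 to 3.67) and Ntrk2 (-1.16 to -0.24) did not span 0, and the others did. Ntrk2 thus had opposite signs in the Malat1-middle and Malat1-rich cells. No direction is read for the list. Cyp2a4, a steroid hydroxylase, had 1 UMI in WT and 25 in N-LKO Malat1-middle cells, a log2 ratio interval of 3.73 to 11.7. Sult1e1, the estrogen sulfotransferase, was at 0.475 CPM in WT against 10.8 CPM in N-LKO. Fmo2 had no UMI in WT Malat1-rich cells and 41.3 CPM in N-LKO, at least 9.43-fold higher by the limit of 3 UMIs, with an exact interval of the log2 ratio that began at 2.92. Abcd2 and Slco1a4 were at 13.5 and 29.8 CPM in WT and at 17.8 and 24.2 CPM in N-LKO Malat1-middle cells, and Sult2a2 did not pass.

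**Figure D5:**
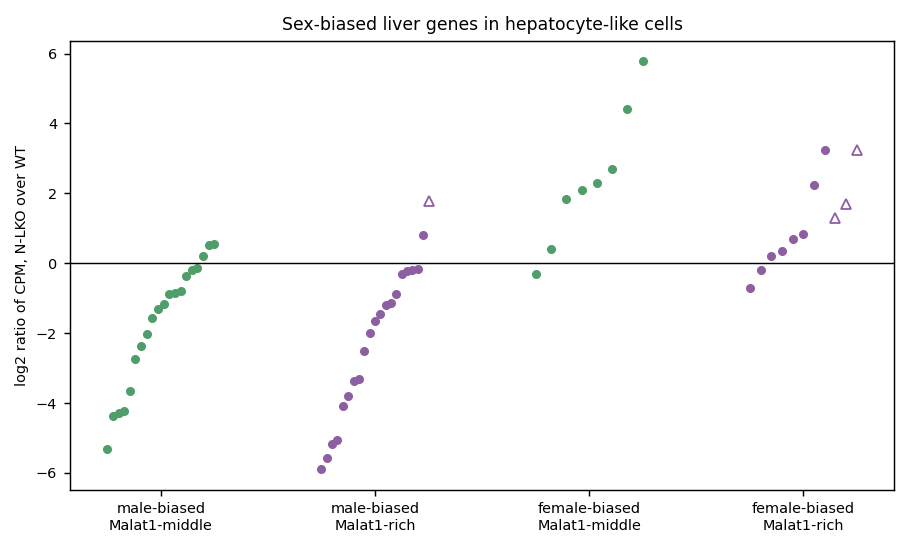
Log2 ratio of CPM, N-LKO over WT, for male-biased and female-biased liver genes that passed the filter, in Malat1-middle and Malat1-rich hepatocyte-like cells. Filled points are ratios and open triangles lower bounds for genes with no WT UMI. Of the male-biased genes 17 of 20 and 16 of 21 have an interval below 0.

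Lipid genes known to be higher in liver without growth hormone signalling were 6, of which 4 passed in Malat1-middle cells, 3 with an interval above 0 (Cidec, Cd36 and Pparg) and 0 below, against 28.1% and 18.3% of all expressed genes. Their median log2 ratio was 0.66 against 0.07. Cidec, a lipid droplet protein, was at 16.0 CPM in WT against 46.6 CPM in N-LKO, and the fatty acid carrier Cd36 at 111 and 200.2 CPM. Pparg was at 19.6 and 27.3 CPM, with a log2 ratio of 0.48 (0.16 to 0.78). In Malat1-rich cells 4 passed as well, and the same 3 genes had intervals above 0 and 0 below, against 19.8% and 16.9% of all expressed genes. Mogat1 and Vldlr did not pass in either kind of cell. In Malat1-middle cells Cidea was at 8.42 and 11.7 CPM with an interval from -0.02 to 0.94. The paper reports more triacylglycerol in the livers of N-LKO than of WT mice. Its part in the levels of these lipid genes was not tested.

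Of 26 other signalling genes, 22 passed in Malat1-middle cells, 6 with an interval above 0 and 3 below, against the same 28.1% and 18.3%, with a median log2 ratio of -0.02 against 0.07. Socs3, an inhibitor induced by STAT3, was at 1.63 CPM in WT against 8.80 CPM in N-LKO. It is counted among the 6, although it passed the filter through N-LKO alone and so had to be higher. Stat3 was at 78.4 and 109 CPM. Onecut1, a liver transcription factor, was at 16.8 and 34.8 CPM. Irs1 was lower, at 34.4 and 19.4 CPM. Over all hepatocyte-like cells Irs1 was instead higher in N-LKO, with a log2 ratio of 0.92 (0.76 to 1.08). In Malat1-rich cells the log2 ratios were -0.18 (-0.48 to 0.15) for Irs1 and -0.24 (-0.51 to 0.04) for Stat3. The genes of lowest ratio in the pooled cells, Shc1, Socs6 and Socs4, had log2 ratios of -0.27, -0.17 and -0.30 in Malat1-middle cells. Jak3 did not pass there. Of 13 IGF axis genes 6 passed, 0 with an interval above 0 and 3 below (Igfbp2, Igfbp4 and Igfbp7), with a median of -0.07 and against the same shares of all genes. Igfbp2, an IGF-binding protein, was at 103 CPM in WT against 68.4 CPM in N-LKO, and Igfbp4 at 536 and 488 CPM. Igf2r and Igf1r were at 16.4 and 12.1 CPM in WT and at 20.5 and 12.8 CPM in N-LKO, with intervals that spanned 0, and Igfbp3 and Igfbp5 did not pass.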

How the data were processed

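The 2 10x Genomics libraries, 1 per group, were analysed. The authors deposited UMI counts per gene and barcode; per the file headers they were made with Cell Ranger 7.1.0, and per the labels the processing notes name the build mm9 and Seurat. Barcodes with at least 1000 UMIs, 400 genes and at most 30% mitochondrial UMIs were kept. Those with a Scrublet score of 0.25 or more (8.55% of WT and 10.6% of N-LKO) were removed as doublets. Cells were clustered with scanpy 1.11.5 (2000 variable genes, 30 principal components, Leiden resolution 0.3). Cell classes were rebuilt from counts and can differ from the study's. Malat1-rich and Malat1-poor clusters lay over 2-fold above or below the median of the hepatocyte-like clusters, 8727 CPM. The main N-LKO Malat1-middle cluster, at 4547 CPM, lay close to the lower cut. Counts were summed by class and library, and log2 ratios used 0.5 added UMIs. The ratio script was tested on simulated data. The 10 genes, the lists and the split by Malat1 were chosen with earlier results of these data known. Named genes were the 10 members and the 3 highest and 3 lowest of each list in the pooled cells. Further genes were named for their counts after their values were seen (Mup20, Ntrk2, Cyp2b9, Cyp17a1, Slc22a27, Igfbp7, Stat3 and Irs1).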

Additional observations from a re-analysis of the deposited data

How the results depend on the processing

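The main values over all hepatocyte-like cells were 0 genes lower and 4 higher by 2-fold, and medians of -1.45 (male-biased) and 2.94 (female-biased). The count of genes lower became 1 with a UMI minimum of 2000, with the pathway genes among the variable genes, with free RNA subtracted, with scaling by the median ratio, relative to genes of like span, in Malat1-middle clusters, in Malat1-rich clusters, and with cells chosen by marker share. The count higher became 1 with pathway genes among the variable genes and in Malat1-middle clusters, and 2 relative to like span and by marker share. The female-biased median, which rests in part on genes that passed through N-LKO alone, stayed positive: 2.15 (UMI minimum of 2000), 2.02 (pathway genes variable), 2.28 (free RNA subtracted), 2.15 (like span), 2.19 (Malat1-middle), 1.95 (marker share), 1.59 (no CPM filter), 1.48 (20 CPM), 0.84 (Malat1-rich) and 1.40 (5 CPM in WT). The male-biased median stayed negative, at -2.78 with a mitochondrial limit of 10% and -0.81 without the Mup genes. The Malat1-rich, WT-filter and Mup settings were chosen after seeing the data.

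Single genes changed sign as follows; Bcl6, whose pooled interval spanned 0 (0.10), was at -0.33 with pathway genes variable, -0.14 with free RNA subtracted, -0.28 by the median ratio, -0.23 relative to like span, -0.34 in Malat1-middle clusters, -0.47 in Malat1-rich clusters and -0.20 by marker share. Ghr was at 0.14 with a UMI minimum of 500 and 0.034 with each cell thinned. Prlr was at -0.078 with pathway genes variable and -0.088 in Malat1-middle clusters. Stat5b was at -0.66 with pathway genes variable, -0.068 with free RNA subtracted, -0.080 relative to like span, -0.60 in Malat1-middle clusters, -0.35 by marker share and -0.31 in Malat1-rich clusters. Jak2 was at -0.14 relative to like span and -0.015 in Malat1-middle clusters. At a mitochondrial limit of 10%, which left 632 WT and 836 N-LKO hepatocyte-like cells, Igf1 was at 0.20 and Igfals at 0.34, and Igfals was at 0.44 in Malat1-rich clusters. With pathway genes variable, 2103 N-LKO cells were hepatocyte-like. In other classes Ghr in endothelial-like cells was at -0.30 with a mitochondrial limit of 10%. Igf1 with free RNA subtracted was at 0.48 in plasmacytoid dendritic-like cells and at 0.67 (from -0.46) in unnamed cluster 4. Ratios whose interval spanned 0 also changed sign on subtraction. Among them were Igf1 at 1.25 in endothelial-like and 1.00 in T-like cells, and Ghr at 0.92 in macrophage-like cells. Of 333 values in named or mixed classes, 281 stayed within their interval. The cause of each change was not tested. No paired analysis was possible because there is 1 library per group.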
